A study of Mus musculus with 12 samples.

Results

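The SR proteins are splicing factors that carry RNA recognition motifs and a tail rich in arginine and serine. They bind exonic enhancer sequences in pre-mRNA and help the spliceosome to define splice sites, and several of them accompany the finished mRNA out of the nucleus. Their activity and location are set by phosphorylation of the serines, and most of their genes contain ultraconserved poison exons through which an SR protein can lower its own mRNA by nonsense-mediated decay. In islets, alternative splicing of genes for secretion and survival is known to respond to such factors, and in human beta cell lines SRSF6 has been studied as a regulator of beta cell survival. The 10 genes described here were Srsf1, Srsf2, Srsf3, Srsf4, Srsf5, Srsf6, Srsf7, Srsf9, Srsf10 and Srsf11. They were taken by gene name from 2 tables of expressed genes, one per sex, and all 10 were found among the 23104 genes present in both. All 10 passed the minimum mean of 10 normalized counts in both sexes.

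The islets came from mice in which Rnf20, an E3 ligase for histone H2B ubiquitination, had been deleted. The knockout genotype was Rnf20 F/F with Pdx1 Cre ER, a tamoxifen-dependent recombinase driven by the Pdx1 promoter, and the submitters describe the deletion as enriched in beta cells. The other genotype was Rnf20 Flox Control, for which no Cre is named, so that an effect of the Cre transgene cannot be told apart from the genotype. Mice of both genotypes had received tamoxifen by gavage, 5 doses of 150 ug per g of body weight at 4 weeks of age. The age at which islets were taken is not given. Whole hand-picked islets were sequenced in 12 libraries, 3 for each of the 4 combinations of sex and genotype. Whole-islet RNA mixes beta cells with the other islet cells and residual exocrine tissue, so fewer cells of a type and less RNA per cell cannot be told apart. Whether the libraries stem from separate animals is not stated in the labels, so the p-values measure only the spread between libraries, which may be technical.

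The values are normalized counts, reads per gene divided by 1 size factor per library, with a separate scaling for each sex, so tests were made within a sex. The libraries held 19759712 to 56086810 assigned reads, and male control 2 was the shallowest, with 17701 genes with reads against 22287 to 24269 in the other libraries. The SR genes together received 38266 to 105606 reads per library, and a single SR gene 163 to 28880. Counting error was small beside the differences between libraries of a group for most of them. It was larger for Srsf4, which had the fewest reads. Rnf20 itself fell in the knockouts by 1.04 ± 0.10 (SE) on the log2 scale in females (limma, adjusted p = 6.35e-04) and by 1.38 ± 0.12 in males (limma, adjusted p = 7.91e-04). The summed beta cell markers, of which 6 of 7 were called lower in females and 5 of 7 in males, took 13.0% to 18.4% of reads in control females against 11.3% to 11.7% in knockout females, and 16.3% to 21.2% against 10.4% to 15.5% in males. The 9 acinar enzyme markers took 1.58% to 3.92% of reads in female controls against 1.19% to 1.70% in female knockouts, and 0.357% to 5.28% against 0.827% to 4.17% in males. None of these 9 was called in either sex, 8 were lower at an unadjusted p below 0.05 in females and none in males, and edgeR called 2 lower in females and none in males. Of the 4 endothelial markers, 3 were called higher in male knockouts (0.043% to 0.057% of reads against 0.029% to 0.032%) and none in females, where 1 was higher at an unadjusted p below 0.05 and edgeR called none. Of the 3 delta cell markers 2 were called lower in females (0.184% to 0.210% of reads in controls, 0.0907% to 0.103% in knockouts) and 3 in males (0.1497% to 0.221% and 0.0677% to 0.104%). Of the 4 stellate markers 1 was called higher in each sex, Col1a1 in females and Pdgfrb in males (0.00769% to 0.0130% of reads in control females against 0.0101% to 0.0179% in knockout females, and 0.00500% to 0.00966% against 0.0103% to 0.0147% in males). Of the 5 erythrocyte markers Hba-a1 was called higher in males (0.00232% to 0.00467% against 0.00478% to 0.0132%), and in females, at 0.000668% to 0.00838% against 0.00511% to 0.0286%, 0 were called by limma or edgeR or at an unadjusted p below 0.05. No beta, delta, acinar, endothelial, stellate or erythrocyte marker was listed at 0 in any library. Of the 4 Schwann cell markers 1 was called higher in each sex and 0 lower, with 1 lower in females at an unadjusted p below 0.05. They took 0.00107% to 0.00122% of reads in control females against 0.00162% to 0.00187% in knockout females. In males this was 0.000800% to 0.000970% against 0.00114% to 0.00181%, with 1 marker at 0 in control 2 and knockout 3. Of the alpha, PP, duct, macrophage and lymphocyte markers 0 were called in either sex by limma or edgeR. The part of these shifts in the SR gene results was not tested.

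The promoters of the 3 SR genes that were called lower in female knockouts are shown. They were chosen by that call, and whether they are regulated together was not tested. Each line gives the 250 bases before the annotated start, from RefSeq on GRCm38.p6, 5′ to 3′ on the strand of the gene, in lower case. Capitals mark matches on either strand to the CCAAT box (CCAAT), the TATA box (TATAAA), the GC box (GGGCGG), the CRE core (TGACG), the ETS core (CCGGAA) and the E-box (CACGTG). Overlapping or adjoining matches run together. The windows lie at chr11:116853095-116853344 on the minus strand for Srsf2, at chr17:29032410-29032659 on the plus strand for Srsf3 and at chr2:162931258-162931507 on the plus strand for Srsf6.
Srsf2: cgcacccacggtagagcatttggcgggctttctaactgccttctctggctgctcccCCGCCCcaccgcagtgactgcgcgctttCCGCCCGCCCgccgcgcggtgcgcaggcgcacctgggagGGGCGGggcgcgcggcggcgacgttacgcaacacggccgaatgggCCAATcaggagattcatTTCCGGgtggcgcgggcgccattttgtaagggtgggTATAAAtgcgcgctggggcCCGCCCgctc
Srsf3: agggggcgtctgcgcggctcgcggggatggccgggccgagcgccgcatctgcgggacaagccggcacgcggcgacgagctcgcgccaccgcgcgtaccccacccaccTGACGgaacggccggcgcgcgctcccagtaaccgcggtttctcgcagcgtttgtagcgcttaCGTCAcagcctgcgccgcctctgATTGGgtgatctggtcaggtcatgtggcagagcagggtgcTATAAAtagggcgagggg
Srsf6: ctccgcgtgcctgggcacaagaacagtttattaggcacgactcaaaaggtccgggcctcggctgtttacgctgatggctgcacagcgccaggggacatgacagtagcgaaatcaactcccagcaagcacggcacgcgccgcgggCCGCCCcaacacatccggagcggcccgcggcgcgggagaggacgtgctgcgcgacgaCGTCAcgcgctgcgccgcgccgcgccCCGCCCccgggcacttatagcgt
All 3 windows were rich in G and C, at 69.6% for Srsf2 and Srsf3 and 68.4% for Srsf6, and the median was 66.8% over the 10 SR genes (56.8% to 77.2%) against 52.0% over all genes. Srsf2 and Srsf3 both hold a TATA box match, whose first base is at -29 from the start in Srsf2 and at -18 in Srsf3, and a CCAAT box match, at -82 and -58. Srsf6 has neither in this window and holds 2 GC box matches and 1 CRE core. Among the 10 genes, which have 13 windows, the TATA box letters occurred in any window of 2 and those of the CCAAT box in 3 (Srsf10 in addition), against 14.327% and 37.495% of 27025 genes with a match in any of their windows. The GC box occurred in 9 of the 10, all but Srsf3, against 35.356% of genes. The CRE core occurred in 6 against 19.785%, the ETS core in 6 against 13.595% and the E-box in 0 against 6.86%. A match is a description of letters and not a binding site.

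In female knockout islets 3 of the 10 SR genes, Srsf6, Srsf2 and Srsf3, fell by about the same amount, and none was called higher. In male knockout islets Srsf6 alone was called, and it too fell. Over all genes 10.7% of 18142 were called lower in females and 7.09% of 18010 in males, so 3 of 10 and 1 of 10 stand against those shares. Called higher were 9.9% of all genes in females and 6.08% in males, against 0 SR genes in either sex. At an unadjusted p below 0.05, limma placed Srsf4 and Srsf9 higher in females and Srsf4 in males. EdgeR called 0 SR genes higher in either sex, while DESeq2 on the recovered reads called 1 in each, Srsf9 in females and Srsf4 in males. The median log2 fold change of the 10 genes was -0.13 in females, beside -0.01 over all genes, and 0.10 in males, beside 0.06. It was -0.07 without female control 3, 0.16 without male knockout 2 and 0.05 without male knockout 3.

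**Figure D1:**
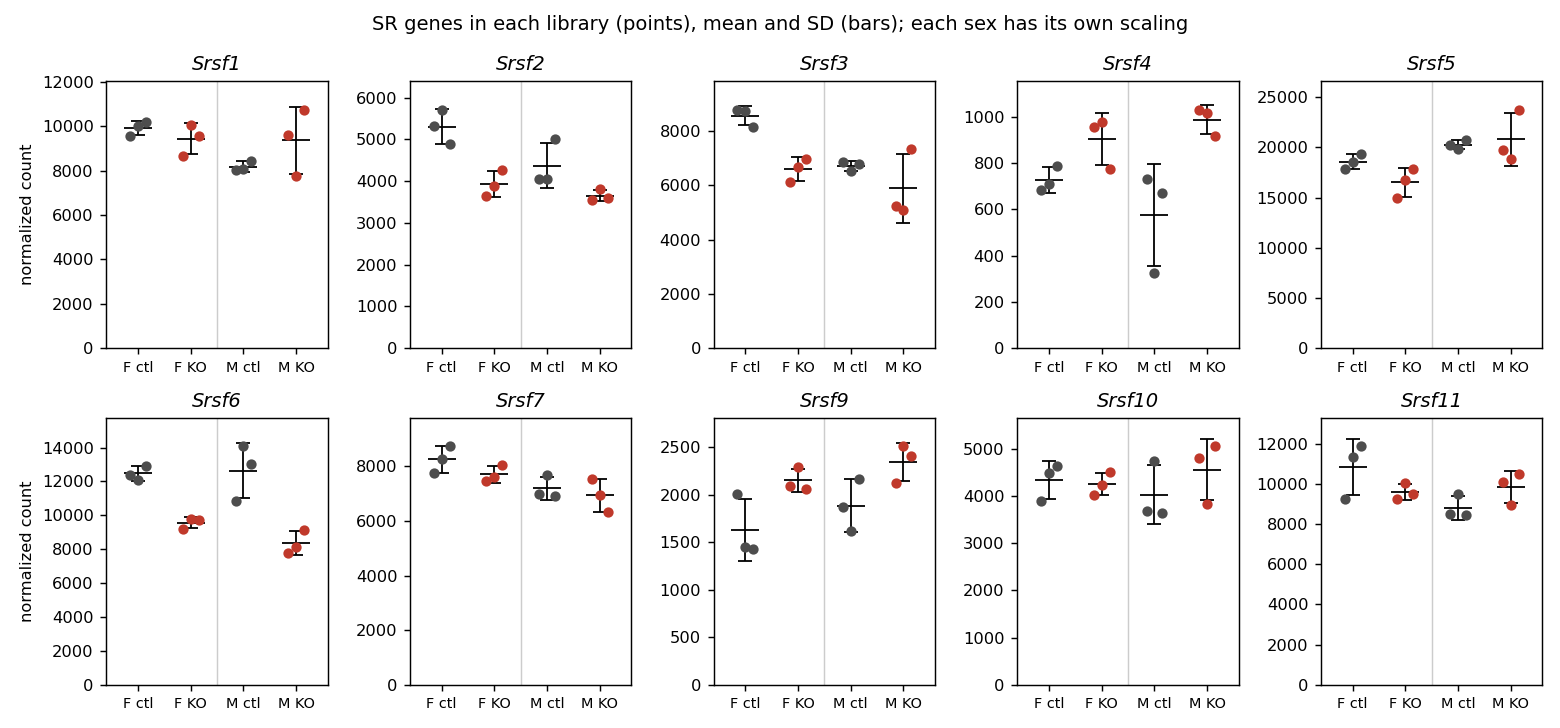
Normalized counts (y axes, linear and starting at 0) of the 10 SR genes in each of the 12 libraries, grouped on the x axes by sex and genotype; points are libraries and bars are the group mean and SD. Srsf6 in the male knockouts lies between 7802 and 9150, below all 3 male controls (10864 to 14075).

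Srsf6 encodes SRp55, an SR protein of the kind with a pair of RNA recognition motifs. The gene (ENSMUSG00000016921) lies on chromosome 2 at 162773448 to 162779041 (GRCm39, plus strand). The 3 female controls had 12392, 12102 and 12924 normalized counts, and the 3 female knockouts 9192, 9776 and 9708. The male controls had 10864, 14075 and 13008, and the male knockouts 7802, 8163 and 9150. In both sexes the knockouts all lay below the controls. Groups that do not overlap were seen for 39.3% of all genes in females and 35.5% in males, and with the knockouts lower for 20.3% and 16.9%. Srsf6 fell by 0.38 ± 0.08 (SE; 95% interval -0.57 to -0.19) on the log2 scale in females, a 1.30-fold difference (limma, adjusted p = 0.0147). In males it fell by 0.59 ± 0.13 (-0.89 to -0.29), a 1.51-fold difference (limma, adjusted p = 0.0210). It was the only SR gene called in both sexes, as were 4.81% of the genes tested in both in that direction, while 4.05% were called higher in both. The authors' deposited table gives log2 fold changes of -0.38 in females (adjusted p = 0.0005) and -0.60 in males (adjusted p = 0.0009). Leaving out 1 library ended the call in females without control 2, knockout 1 or knockout 2 (adjusted p between 0.052 and 0.065) and in males without control 2, control 3, knockout 1 or knockout 2 (0.050 to 0.1095), with the log2 fold change between -0.41 and -0.36 in females and between -0.70 and -0.51 in males. Quantile scaling also ended the female call, at -0.23 (limma, adjusted p = 0.0872), and left the male one, at -0.52 (adjusted p = 0.0216).

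Srsf2 encodes SC35, a component of nuclear speckles that stays mainly in the nucleus. The gene (ENSMUSG00000034120) lies on chromosome 11 at 116740727 to 116743920 (GRCm39, minus strand). It had 5312, 5713 and 4882 normalized counts in the female controls and 3632, 3895 and 4271 in the female knockouts. The male values were 4054, 4061 and 4998 in controls and 3552, 3812 and 3602 in knockouts. The groups did not overlap in either sex, and the gap was narrower in males. Srsf2 fell by 0.43 ± 0.10 (SE; -0.66 to -0.20) on the log2 scale in females, 1.35-fold (limma, adjusted p = 0.0207). The male difference was -0.25 ± 0.13 (-0.53 to 0.03) and was not called (limma, adjusted p = 0.226). The authors' deposited table gives -0.43 in females (adjusted p = 0.0030) and -0.26 in males (adjusted p = 0.209). The female call was lost without control 2, knockout 1 or knockout 2 (adjusted p between 0.079 and 0.087). Srsf2 overlaps Mfsd11 and Mettl23 on the opposite strand, and since the strand setting of the counting is not stated, reads of the overlaps may have been assigned to either gene or dropped. Mfsd11 differed by -0.08 in females (limma, adjusted p = 0.625) and -0.07 in males (adjusted p = 0.796), and Mettl23 by 0.28 (adjusted p = 0.339) and -0.03 (adjusted p = 0.948), all on the log2 scale.

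Srsf3 encodes SRp20, the smallest of the classical SR proteins, which also acts as an adaptor in mRNA export. The gene (ENSMUSG00000071172) lies on chromosome 17 at 29251602 to 29262347 (GRCm39, plus strand). It had 8784, 8731 and 8162 normalized counts in the female controls and 6112, 6684 and 6973 in the female knockouts. The male controls had 6847, 6516 and 6782, and the male knockouts 5242, 5074 and 7336. In females the groups did not overlap, whereas male knockout 3 lay above every male control. Srsf3 fell by 0.38 ± 0.09 (SE; -0.59 to -0.17) on the log2 scale in females, 1.30-fold (limma, adjusted p = 0.0213). In males the difference was -0.21 ± 0.15 (-0.55 to 0.13; limma, adjusted p = 0.406). In the authors' deposited table the values are -0.38 (adjusted p = 0.0029) and -0.19 (adjusted p = 0.503). The female call was lost without control 2, knockout 1 or knockout 2 (adjusted p between 0.074 and 0.086), in a fit over all 12 libraries (limma, adjusted p = 0.0690) and under quantile scaling (-0.29; limma, adjusted p = 0.0554). Without male knockout 3 the male difference was -0.38 (limma, adjusted p = 0.0850).

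Srsf4 encodes SRp75, the SR protein with the longest arginine and serine tail, and was the least abundant of the 10. The gene (ENSMUSG00000028911) lies on chromosome 4 at 131600928 to 131629017 (GRCm39, plus strand). It had 683, 707 and 787 normalized counts in the female controls and 956, 977 and 774 in the female knockouts. The male controls had 732, 325 and 670, and the male knockouts 1030, 1014 and 916. The female groups overlapped, since knockout 3 lay below control 3, and the male groups did not, with control 2, the shallowest library, far below the other controls. The differences were 0.31 ± 0.13 (SE; 0.02 to 0.60) on the log2 scale in females (limma, adjusted p = 0.128) and 0.86 ± 0.29 (0.21 to 1.51) in males (limma, adjusted p = 0.0838), neither of which was called. Without male control 2 the male difference was 0.49 (adjusted p = 0.0672), and without male control 1 it was 1.08 and was called (adjusted p = 0.0472). The authors' deposited table gives 0.77 in males with an adjusted p of 0.0420, and 0.31 in females with an adjusted p of 0.125. Srsf4 overlaps A930004J17Rik on the same strand and the noncoding Gm12992 on the opposite strand. A930004J17Rik differed by -0.24 in females (limma, adjusted p = 0.714) and 0.88 in males (adjusted p = 0.294) on the log2 scale. Gm12992 differed by 0.57 in females (adjusted p = 0.182), without overlap of the groups, and by 0.66 in males (adjusted p = 0.445).

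Srsf9 encodes SRp30c, an SR protein with a short tail. The gene (ENSMUSG00000029538) lies on chromosome 5 at 115465236 to 115471139 (GRCm39, plus strand). It had 2002, 1447 and 1424 normalized counts in the female controls and 2092, 2292 and 2062 in the female knockouts. The male controls had 1874, 1613 and 2168, and the male knockouts 2117, 2508 and 2403. All female knockouts lay above all female controls, by a small margin over control 1, and in males knockout 1 fell below control 3. Such a separation, with the knockouts higher, was seen for 19% of all genes in females and 18.6% in males. The difference was 0.42 ± 0.14 (SE; 0.09 to 0.75) on the log2 scale in females (limma, adjusted p = 0.0718) and 0.32 ± 0.15 (-0.01 to 0.65) in males (limma, adjusted p = 0.186), and neither was called. Without female control 1 the female difference was 0.58 and was called (adjusted p = 0.00746). The authors' deposited table gives 0.40 in females (adjusted p = 0.0577) and 0.31 in males (adjusted p = 0.194).

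The other 5 genes were not called in either sex. Srsf1, the founding SR protein known as SF2 or ASF, lies on chromosome 11 at 87938199 to 87944581 and differed by -0.07 (95% interval -0.28 to 0.14) on the log2 scale in females and 0.18 (-0.13 to 0.49) in males. Srsf5, which encodes SRp40, lies on chromosome 12 at 80992278 to 80997281 and differed by -0.17 (-0.40 to 0.05) and 0.03 (-0.25 to 0.31). Srsf7 encodes 9G8, an SR protein with a zinc knuckle that also serves in mRNA export. It lies on chromosome 17 at 80507509 to 80514736 and differed by -0.10 (-0.30 to 0.11) and -0.05 (-0.32 to 0.21). Srsf10 encodes SRp38, which represses splicing when it is dephosphorylated in heat shock or mitosis. It lies on chromosome 4 at 135583058 to 135597219 and differed by -0.03 (-0.26 to 0.20) and 0.18 (-0.17 to 0.53). Srsf11 encodes p54, which acts with Srrm4 on neuronal microexons, and lies on chromosome 3 at 157716110 to 157742276 (all positions GRCm39). It differed by -0.17 (-0.42 to 0.09) in females and 0.16 (-0.10 to 0.43) in males. These intervals leave room for changes of the size seen for Srsf6 in females at one end or the other for Srsf1, Srsf5, Srsf10 and Srsf11 in at least one sex, so a missed threshold does not show that these genes were equal between genotypes. Adjusted p-values over these 5 genes ran from 0.258 to 0.886 in females and from 0.412 to 0.899 in males (limma).

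**Figure D2:**
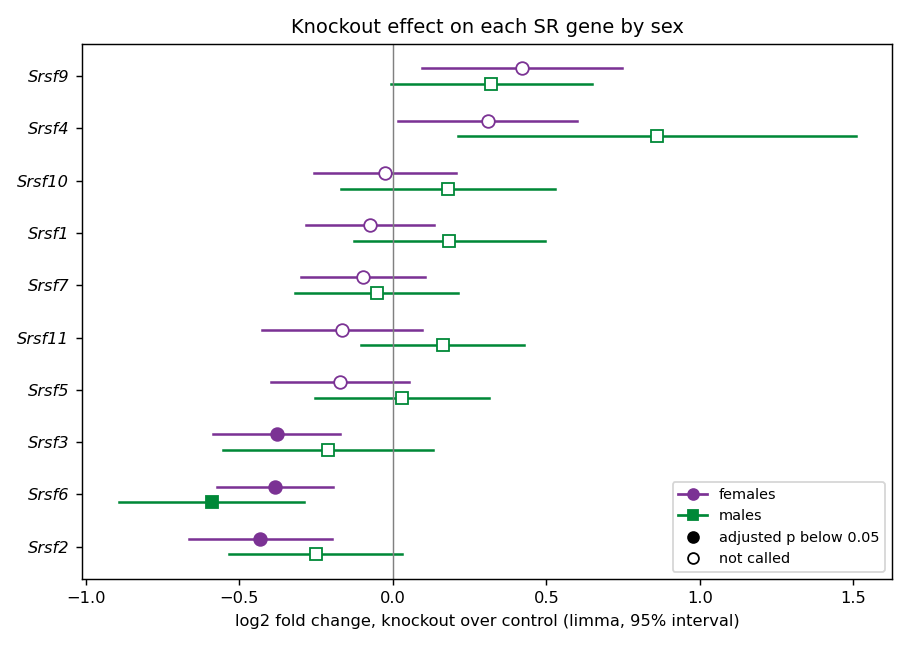
Log2 fold change of each SR gene, knockout over control, in females and males (points; lines are 95% intervals from limma), with 0 marking no difference. Srsf6 lies below 0 in both sexes, and the male interval of Srsf4, 0.21 to 1.51, is the widest.

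No SR gene was called for a difference of the knockout effect between the sexes. In the interaction fit over 12 libraries and 17330 genes, 0.11% of genes were called, and of the 10 SR genes 0 were called by limma, 0 had an unadjusted p below 0.05 and edgeR called 0. The Srsf6 effect was 0.21 lower in males on the log2 scale, as a difference of -0.21 ± 0.15 (SE; -0.53 to 0.12; limma, adjusted p = 0.750). For Srsf2 the male minus female difference was 0.18 (-0.15 to 0.51; adjusted p = 0.773) and for Srsf3 it was 0.17 (-0.22 to 0.56; adjusted p = 0.823). Srsf4 had the largest value, 0.55 ± 0.35 (-0.20 to 1.30; adjusted p = 0.723). Srsf11 had the smallest unadjusted p, 0.0570, with a difference of 0.33 (-0.01 to 0.67; adjusted p = 0.632). The calls of Srsf2 and Srsf3 in females alone are therefore not shown to be a difference between sexes.

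The calls depended on how the libraries were scaled. The size factors were high relative to the read totals in the knockouts, and dividing by assigned reads instead, an alternative chosen after the data were seen, moved the median of all genes by 0.21 in females and 0.13 in males on the log2 scale. On that scale Srsf2, Srsf3 and Srsf6 kept their direction in females, at -0.22, -0.17 and -0.18 (limma, adjusted p = 0.185, 0.221 and 0.190), but were no longer called, and Srsf6 in males was -0.46 (adjusted p = 0.0524). Srsf4 and Srsf9 were called higher in females, at 0.52 (adjusted p = 0.0276) and 0.63 (adjusted p = 0.00774), and Srsf4 in males, at 0.99 (adjusted p = 0.0444). In females Srsf1, Srsf5, Srsf7, Srsf10 and Srsf11 changed sign, as did Srsf7 in males. A single factor per library moves all genes nearly alike, so the distance from the median of all genes, -0.37 for Srsf6 in females and -0.65 in males, is set by construction and is no test of the direction. Quantile scaling can change that distance, and under it Srsf2 was called in females, at -0.38 (adjusted p = 0.0338), Srsf6 and Srsf3 were not, and Srsf4 was called higher in males, at 0.89 (adjusted p = 0.0475). Summed over the family, the SR genes took 0.199% ± 0.0177 (SD, n = 3) of assigned reads in control females against 0.201% ± 0.00966 in knockout females, and 0.187% ± 0.00729 against 0.200% ± 0.0205 in males. In normalized counts the sums were 80566 ± 2831 and 70624 ± 3760 in females and 74640 ± 2509 and 72759 ± 6509 in males.

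The makeup of the family, the share of each gene in the reads of all 10, needs no scaling. Srsf6 held 16.001%, 14.9% and 15.6% of the reads of the 10 genes in female controls and 13.9%, 13.5% and 13.3% in female knockouts. In males it held 15.1%, 18.4% and 17.2% in controls and 10.9%, 12.2% and 11.5% in knockouts. Srsf4 held 0.870% to 0.949% in control females against 1.06% to 1.44% in knockout females, and 0.426% to 1.02% and 1.15% to 1.51% in males. Srsf9 held 1.72% to 2.58% in control females against 2.81% to 3.17% in knockout females, and 2.11% to 2.86% and 2.96% to 3.75% in males. The shares of these 3 genes did not overlap between genotypes in either sex, nor did those of Srsf1, which were higher in the knockouts. Those of Srsf7 and Srsf10 in females and Srsf11 in males were also higher without overlap. In females the shares of 5 members were higher without overlap, 3 were lower and 2 overlapped. In males 4 were higher, 1 was lower and 5 overlapped. The shares of Srsf2 and Srsf3 were lower without overlap in females, from 5.88% to 7.03% down to 5.39% to 5.83% and from 9.84% to 11.3% down to 9.22% to 9.52%, and overlapped in males. Over all genes, normalized counts did not overlap between genotypes for 39.3% in females and 35.5% in males, which is another measure than a share within a family. Shares add up to the whole, so a lower share of some members raises those of the rest, and no test was made on them.

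**Figure D3:**
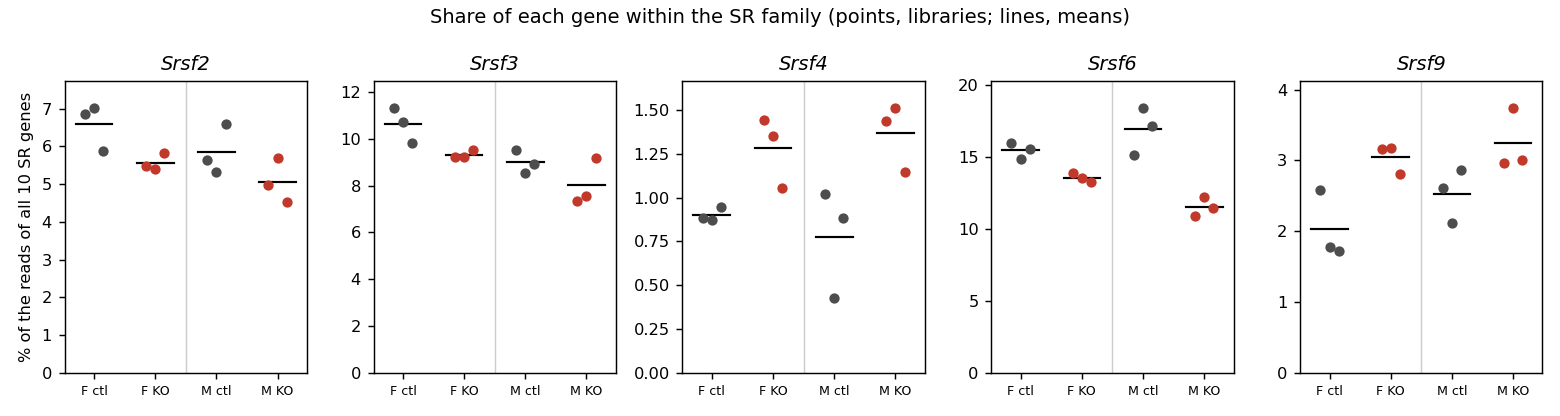
Share of the reads of all 10 SR genes (y axes, percent, starting at 0) that fell on Srsf2, Srsf3, Srsf4, Srsf6 and Srsf9 in each library, by sex and genotype on the x axes; points are libraries and lines are means. The share of Srsf6 in the male knockouts, 10.9% to 12.2%, lies below that of the male controls, 15.1% to 18.4%.

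Per length of exon, Srsf5 was the most abundant SR mRNA and Srsf4 the least in all 4 groups. The level was taken as RPKM, reads per kb of exon and 1000000 assigned reads, with exon lengths from GENCODE M21. In female controls Srsf5 stood at 115 ± 10.4 (SD, n = 3), Srsf6 at 63.9 ± 4.24, Srsf7 at 57.3 ± 6.24, Srsf2 at 44.2 ± 4.70 and Srsf1 at 42.9 ± 3.72. Below them came Srsf11 at 31.7 ± 5.66, Srsf3 at 26.7 ± 1.5, Srsf9 at 24.0 ± 3.36, Srsf10 at 15.3 ± 2.19 and Srsf4 at 5.03 ± 0.58. Neighbours whose libraries overlapped in this order were Srsf6 and Srsf7, Srsf2 and Srsf1, Srsf11 and Srsf3, and Srsf3 and Srsf9. In male controls the order was Srsf5 (127 ± 1.66), Srsf6 (65.9 ± 8.96), Srsf7 (50.7 ± 3.52), Srsf2 (37.0 ± 4.32), Srsf1 (35.9 ± 0.83), Srsf9 (28.5 ± 3.93), Srsf11 (26.1 ± 2.03), Srsf3 (21.3 ± 0.37), Srsf10 (14.4 ± 2.40) and Srsf4 (4.04 ± 1.51). There Srsf2 and Srsf1, and Srsf9 and Srsf11, overlapped. In the knockouts Srsf7 stood above Srsf6, at 61.8 ± 3.04 against 56.5 ± 1.45 in females, without overlap, and at 53.7 ± 5.57 against 47.8 ± 3.97 in males, with overlap. With the length of the longest coding transcript instead, Srsf5, Srsf10 and Srsf4 kept the ranks 1, 9 and 10 in every group, and the middle of the order changed, with Srsf11 moving from rank 6 to 3 in female controls.

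**Figure D4:**
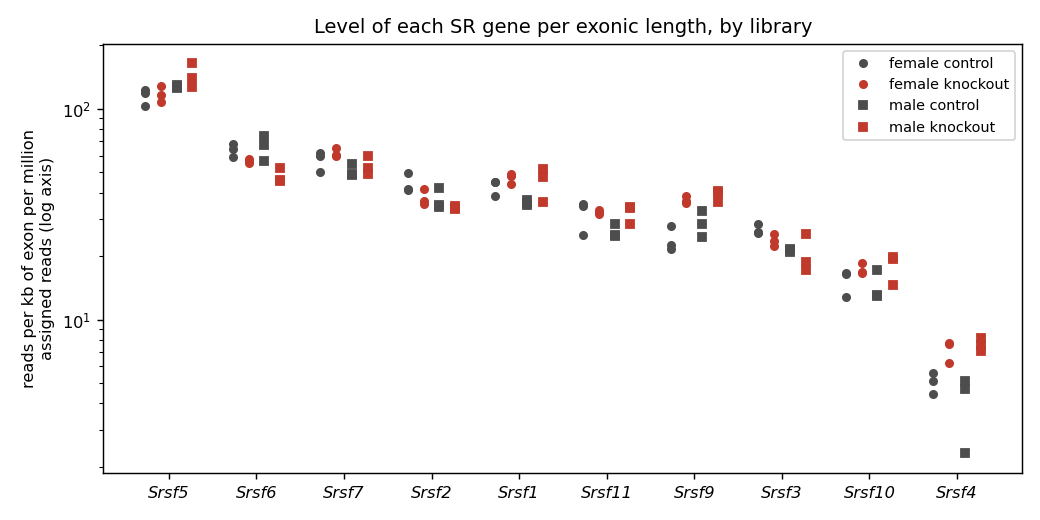
Level of the 10 SR genes in RPKM, reads per kb of exon and 1000000 assigned reads (y axis, log scale) in each library, with genes on the x axis and symbols for the 4 groups. Srsf5 lies highest and Srsf4 lowest, with group means of 115 and 5.03 in female controls.

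Gene-level counts do not separate productive transcripts from those with a poison exon or a retained intron. In GENCODE M21, 9 of the 10 SR genes, all but Srsf10, have at least 1 transcript annotated to nonsense-mediated decay, against 20.9% of 21924 protein-coding genes. A transcript with a retained intron is annotated for 8 of the 10, all but Srsf9 and Srsf10, against 41.6%. Srsf11 has the most, with 11 of its 19 transcripts, and Srsf3 has 4 of 10. Of the 3 genes called lower in females, Srsf2 and Srsf3 each have 2 transcripts annotated to nonsense-mediated decay and Srsf6 has 1. Which of these were counted was not analysed here.

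The genes around the SR family in the splicing pathway were counted in 7 lists. Among 29 SR-like and SR-related genes, such as the Tra2 proteins and coactivators with arginine and serine tails, 6 rose and 0 fell in females and 6 rose and 0 fell in males. At an unadjusted p below 0.05, 2 of them were lower in females and 1 in males, and edgeR called 0 lower in females and 1 in males. The median log2 fold change was 0.13 in females and 0.28 in males, against -0.01 and 0.06 over all genes. The share called, 20.7% in each sex and all of it higher, compares with 9.9% of all genes called higher in females and 6.08% in males. In either direction, 20.6% and 13.2% of all genes were called. Luc7l3, a U1-associated factor, rose by 0.46 ± 0.11 (SE) in females (limma, adjusted p = 0.0182) and by 0.82 ± 0.14 in males (adjusted p = 0.0061). Srrm1, the splicing coactivator SRm160, rose by 0.58 ± 0.13 (adjusted p = 0.0166) and 0.59 ± 0.12 (adjusted p = 0.0142). Scaf8 and Scaf4, which bind the tail of RNA polymerase II and guard against early termination, rose in both sexes, Scaf8 by 0.41 and 0.59 and Scaf4 by 0.37 and 0.53 in females and males (adjusted p between 0.0170 and 0.0284). Son, a speckle scaffold, rose by 0.48 in males (adjusted p = 0.0464) and stood at -0.05 in females (adjusted p = 0.830), Scaf11 rose by 0.41 in males (adjusted p = 0.0400), and Rsrc1 and Sfswap rose by 0.35 and 0.34 in females (adjusted p = 0.0258 and 0.0269). The Scaf11 call was lost whichever library was left out (adjusted p up to 0.207). Leaving out 1 library gave 0 to 8 higher calls in females, with 1 without control 2, 2 without knockout 1, 0 without knockout 2 and 2 without knockout 3, and 1 lower call without control 1 or control 3. It gave 1 to 7 in males, with 3 without control 1 or knockout 3 and 1 without control 3 or knockout 1.

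The kinases that phosphorylate SR proteins and the importins that carry them into the nucleus also included risers. Of 11 such genes, 2 rose and 0 fell in females and 4 rose and 0 fell in males, against 9.9% and 6.08% of all genes called higher. The share called in either direction was 18.2% in females, beside 20.6% of all genes, and 36.4% in males, beside 13.2%. The medians were 0.19 and 0.41, the female one 0.07 without control 1, and at an unadjusted p below 0.05 as in edgeR 0 were lower in either sex. Srpk3, the SR protein kinase of muscle, rose from a mean of 55.7 to 147 normalized counts in females (1.44 ± 0.30 SE on the log2 scale; limma, adjusted p = 0.0133) and from 45.0 to 236 in males (2.67 ± 0.61; adjusted p = 0.0213). The female call of Srpk3 was lost without knockout 2 (limma, adjusted p = 0.0606). Its male call was lost without control 3, knockout 1 or knockout 2 (limma, adjusted p up to 0.0916). Clk2, a nuclear kinase of SR proteins, rose by 0.38 ± 0.08 (adjusted p = 0.0127) and 0.40 ± 0.11 (adjusted p = 0.0419). Its female call was lost without control 2 or knockout 2, and its male call whichever library was left out (adjusted p up to 0.159). Tnpo3, the import receptor of SR proteins, rose by 0.51 ± 0.11 in males (adjusted p = 0.0188) and stood at -0.04 in females (adjusted p = 0.835), and Srpk2 rose by 0.49 ± 0.14 in males (adjusted p = 0.0424). With 1 library left out the higher calls ran from 0 to 2 in females, with 1 without control 2 and 0 without knockout 2. They ran from 0 to 4 in males, with 2 without control 1, 0 without control 3 or knockout 1 and 1 without knockout 3.

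The hnRNP genes, whose proteins often counter SR proteins at exons, held 4 that fell and 0 that rose among 26 in females, and 2 that fell and 0 that rose in males. These are 15.4% and 7.69% of the list, near the 10.7% and 7.09% of all genes called lower. At an unadjusted p below 0.05, 2 were higher in each sex, and edgeR called 0 higher in either. Their medians were -0.09 and 0.05. Hnrnph2 fell in both sexes, by 0.56 ± 0.08 (SE; limma, adjusted p = 0.0034) in females and 0.52 ± 0.12 (adjusted p = 0.0192) in males. Hnrnpa2b1 and Hnrnpa1 fell in females, by 0.55 ± 0.09 (adjusted p = 0.0048) and 0.46 ± 0.08 (adjusted p = 0.0063), and stood at -0.30 (adjusted p = 0.270) and 0.00 (adjusted p = 0.990) in males. Pcbp1 fell by 0.53 ± 0.12 in males (adjusted p = 0.0220) and stood at -0.33 in females (adjusted p = 0.0643). With 1 library left out, the lower calls in males numbered 1 for control 1, control 3 or knockout 3 and 0 for knockout 1. Leaving out male knockout 2 gave 3 higher and 3 lower calls, and leaving out female control 1 gave 1 higher call.

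Among 25 tested regulators of splicing with restricted expression, 4 rose and 4 fell in females and 5 rose and 2 fell in males. The share called was 32% in females and 28% in males, beside 20.6% and 13.2% of all genes. Their medians were 0.06 and 0.04. With 1 library left out the medians ran from 0.0018 to 0.105 in females and from 0.098 to 0.136 in males. The male median of the full fit lies below that range. Rbfox3, a neuronal splicing regulator known as NeuN, rose from a mean of 44.2 to 319 normalized counts in females (2.83 ± 0.19 SE; limma, adjusted p = 2.69e-04) and from 54.8 to 394 in males (2.78 ± 0.39; adjusted p = 0.0034). Mbnl2, a muscleblind protein, rose by 0.56 (adjusted p = 0.0463) and 0.86 (adjusted p = 0.0083). Esrp1, the epithelial splicing regulator, fell by 0.43 ± 0.10 (adjusted p = 0.0190) and 0.81 ± 0.13 (adjusted p = 0.0046). Celf6 fell by 1.00 ± 0.14 (adjusted p = 0.0030) and 1.01 ± 0.24 (adjusted p = 0.0253). The neuronal RNA-binding genes Elavl2 and Elavl4 fell in females by 0.93 (adjusted p = 0.0390) and 0.42 (adjusted p = 0.0360), and Qk rose by 0.60 in males (adjusted p = 0.0182). Without 1 female library the counts were 2 to 4 higher and 1 to 4 lower, with 2 higher and 1 lower without control 2 or knockout 1, 2 of each without knockout 2, and 2 higher without knockout 3. Without 1 male library they were 1 to 6 higher and 1 to 2 lower, with 3 higher without control 1, 3 higher and 1 lower without control 3 or knockout 3, 1 lower without control 2, and 1 of each without knockout 1.

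**Figure D5:**
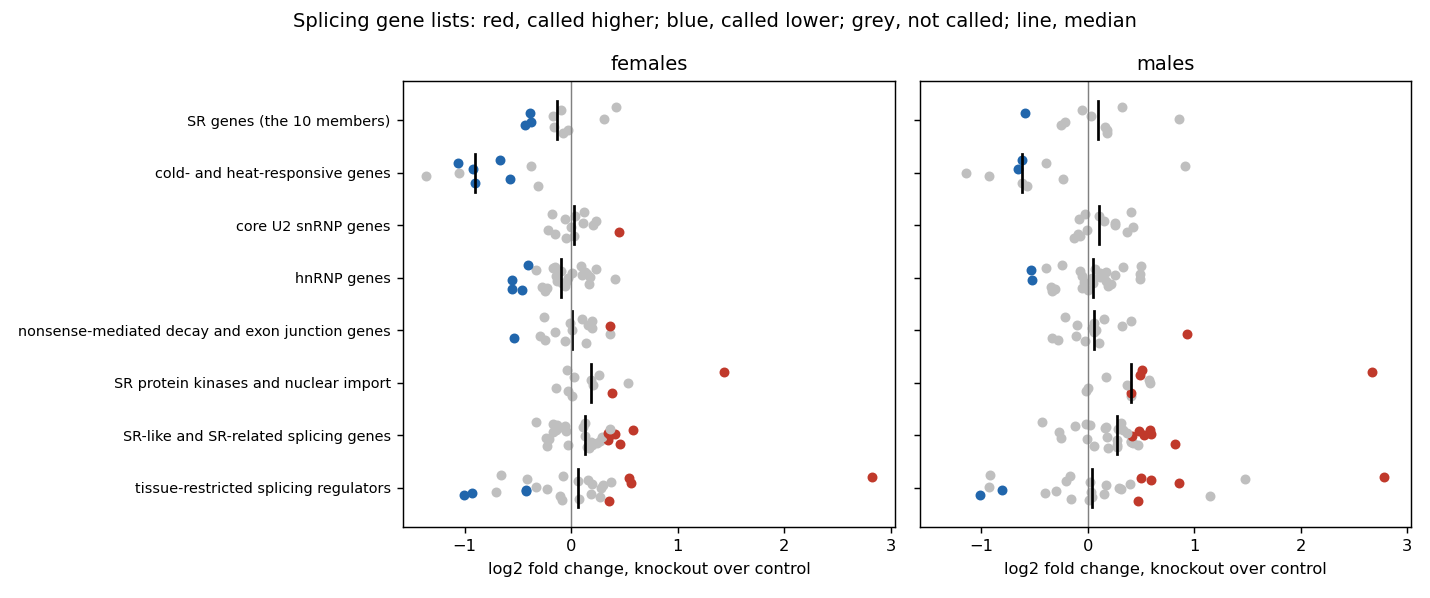
Log2 fold change, knockout over control, of every tested gene of the SR family and of the 7 lists around it, by sex (x axes; points are genes, red for those called higher by limma, blue for those called lower and grey for the others, and lines are list medians). The SR genes spread from -0.43 to 0.42 in females and from -0.59 to 0.86 in males.

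Of 15 genes of nonsense-mediated decay and the exon junction complex, 1 rose and 1 fell in females, Smg8 (0.37; limma, adjusted p = 0.0416) and Magohb (-0.53; adjusted p = 0.0485). In males 1 rose, the kinase Smg1 (0.94 ± 0.14 SE; adjusted p = 0.0036), and 0 fell, with 0 lower at an unadjusted p below 0.05 and 0 by edgeR, and the medians were 0.01 and 0.06. The share called was 13.3% in females and 6.67% in males, below the 20.6% and 13.2% of all genes called in either direction. Called higher in males were 6.08% of all genes. Smg1 was called in males whichever library was left out, while Smg8 was called in females only without control 1 and Magohb in no such fit. Without female control 3 another gene of the list was called higher. Of 13 core U2 snRNP genes 1, Sf3a2, rose in females (0.45 ± 0.11; adjusted p = 0.0224) and 0 fell, with 0 lower at an unadjusted p below 0.05 and 0 by edgeR. In males 0 of the 13 were called by limma or edgeR and 2 were higher at an unadjusted p below 0.05, and the medians were 0.02 and 0.10. The share called was 7.69% in females, below that of all genes. The Sf3a2 call was lost without control 2, knockout 1, knockout 2 or knockout 3.

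Of 9 cold- and heat-responsive genes, 5 fell in females and 2 in males, and 0 rose by limma or edgeR or at an unadjusted p below 0.05. The share called was 55.6% in females and 22.2% in males, beside 10.7% and 7.09% of all genes called lower. The medians were -0.91 and -0.61. Hspa8, the constitutive HSC70 chaperone, fell by 0.92 ± 0.11 (SE; limma, adjusted p = 0.0015) in females and 0.65 ± 0.15 (adjusted p = 0.0207) in males. Rbm3, a cold-inducible RNA-binding protein, fell by 0.67 ± 0.12 (adjusted p = 0.0064) and 0.61 ± 0.17 (adjusted p = 0.0466). Hsph1 and Dnajb1, cochaperones of HSP70, fell in females by 1.07 ± 0.19 (adjusted p = 0.0082) and 0.91 ± 0.20 (adjusted p = 0.0167). The lower calls in males were 0 when control 2, control 3 or knockout 1 was left out, 1 for knockout 2 and 3 for control 1 or knockout 3, with 1 higher call for control 1. With 1 library left out the medians of this list ran from -0.95 to -0.70 in females and from -0.70 to -0.47 in males, and those of the other lists moved by at most 0.11, so the medians near 0 carry no direction. Over all lists and the SR family, 9 of 31 called genes in females and 4 of 23 in males were called whichever library was left out. No gene of the 7 lists was called for a sex difference by limma or edgeR among 128 tested, and 11 had an unadjusted p below 0.05, so the calls made in 1 sex alone are not shown to differ between sexes.

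The genes whose profile was most like the mean profile of the 10 SR genes over the 6 libraries of each sex were Ocrl, Ahcyl1, Txndc16, Iqce, Gdap1 and Nmt2. The Pearson correlations of log2 normalized counts were 0.92 in females and 0.95 in males for Ocrl, 0.91 in both for Ahcyl1 and 0.94 and 0.90 for Txndc16 and Iqce. They were 0.89 and 0.91 for Gdap1 and 0.89 and 0.94 for Nmt2. These are the highest of 12153 genes compared over few libraries that share their scaling, and are given as a description.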

How the data were processed

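RNA of hand-picked islets was sequenced in 12 libraries. The submitters' processing notes name FastQC 0.11.9, Trim Galore 0.6.7, STAR 2.7.3a and featureCounts (no version), and GRCm39 (mm39). The strand setting and annotation release are not given in the sources used here. The signal values per library deposited by the authors were counts divided by 1 DESeq2 size factor per library, in 1 table per sex. The authors deposited beside them, per the file headers, DESeq2's log2 fold changes, their standard errors (a score per gene), and raw and adjusted Wald p-values.

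Repeated entries (79 for females, 73 for males) were dropped, which left 24631 and 24474 genes, 40 and 50 of them unnamed. The size factor of each library was inferred from its smallest positive value, which was assumed to be a single read. Multiplied by that factor, 100% of the values came out as whole reads (tolerance 0.001). The planned test for normalized values, limma-trend (limma 3.58.1, R 4.3.3, trend and robust), was fitted per sex on log2(normalized count + 1) for genes with a mean of at least 10, with genotype as the sole term. The threshold for a call was 0.05 after Benjamini-Hochberg adjustment over all genes, and adjusted p-values in the report are limma's unless another source is named. Fold changes are on the log2(value + 1) scale. The sex difference was the interaction over all 12 libraries. Alternatives were edgeR 4.0.16, DESeq2 1.42.0 and voom on the recovered reads, pseudocounts of 0.5 and 5, no filter or a mean of at least 50, quantile scaling, scaling by assigned reads, a replicate block, a fit of all 12 libraries, and leaving out each library. The script was tested on simulated data with log2 changes of 0.5 and 1 put into some genes. It called 9% of the changes of 0.5 and 68% of those of 1 in females, and 2% and 47% in males. Changes near the size of the SR effects were mostly missed there. Far fewer genes were changed in the simulation than were called in the data, so these shares do not give the sensitivity for the SR genes. A gene not called is still not shown to be unchanged.

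The SR genes and the lists were chosen with earlier results of these data known. Named were all 10 SR genes, Rnf20 and, per list, up to 4 genes called in both sexes and up to 2 called in 1 sex. Averaged over genes, the squared differences between libraries of 1 group were 24.0 to 290 times the variance from counting. Promoters came from RefSeq (GRCm38.p6) and transcripts from GENCODE M21 (GRCm38), another build than the tables, and were matched by gene name.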

Additional observations from a re-analysis of the deposited data

How the results depend on the processing

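With 3 libraries per group the limma calls of the SR genes sat near the threshold, while the directions of the called genes held under every alternative run. DESeq2 on the recovered reads gave the same lower calls further from the threshold, at adjusted p = 1.12e-04 to 0.0020. The genes called numbered 3745 in females and 2372 in males, 2408 and 4396 in a fit of all 12 libraries, and 1847 to 3760 and 814 to 2298 with 1 library left out. The SR genes called lower in females, 3, were 2 in the fit of all 12 libraries (Srsf2 and Srsf6) and 1 under quantile scaling (Srsf2). They were 0 under scaling by assigned reads and 0 to 3 with 1 library left out. In males, 1, they were 0 under scaling by assigned reads and 0 to 1 with 1 library left out. The SR genes called higher in females, 0, were 1 with DESeq2 (Srsf9), 2 under scaling by assigned reads and 0 to 1 with 1 library left out. In males, 0, they were 1 with DESeq2, under quantile scaling, under scaling by assigned reads and in the fit of all 12 libraries (Srsf4 each time), and 0 to 1 with 1 library left out. The genes with a sex difference, 19, ran from 0 to 53 with 1 library left out, with 53 without male control 1. The causes were not tested.

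Within a sex, signs turned only for genes not called in that sex. In females, quantile scaling gave 0.058 for Srsf1, 0.052 for Srsf5, 0.0031 for Srsf7 and 0.018 for Srsf10, and scaling by assigned reads gave 0.13 for Srsf1, 0.035 for Srsf5, 0.11 for Srsf7, 0.18 for Srsf10 and 0.043 for Srsf11. In males, scaling by assigned reads gave 0.079 for Srsf7. With 1 library left out the log2 fold change ran from -0.10 to 0.025 for Srsf10 in females, from -0.069 to 0.097 for Srsf5 and from -0.12 to 0.012 for Srsf7 in males. The male minus female difference, called for no SR gene, ran from -0.26 to 0.0062 for Srsf9, from -0.019 to 0.11 for Srsf7 and from -0.0019 to 0.26 for Srsf3.

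The deviations of libraries with the same replicate number correlated at -0.04, -0.28 and -0.13 in females and 0.12, 0.01 and 0.15 in males. Those of libraries with different numbers correlated at -0.11 to 0.25 in females and -0.16 to 0.08 in males. With 3 libraries per group these values do not decide whether the numbers pair the libraries. With the replicate block no call of an SR gene changed within a sex, and 0 genes had a sex difference.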
